A study of Homo sapiens with 6 samples.

Results

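The 10 genes described here were the Notch receptors NOTCH1, NOTCH2 and NOTCH3, the Notch ligands JAG1, JAG2 and DLL1, and the Notch target genes HES1, HES4, HEY1 and NRARP. They were chosen by name from the 67140 Ensembl gene identifiers of the count table, by a rule that used no measured value but was written with earlier results of these data known. RNA sequencing was performed in KYSE150, a human esophageal squamous cell carcinoma (ESCC) cell line, to ask how the transcriptome differed after a hairpin against the long noncoding RNA AC007128.1 was introduced. The control group (shCtrl, 3 samples) carried a control hairpin and the other group (shAC007128.1, 3 samples) a hairpin against AC007128.1, and both were grown in RPMI medium with fetal bovine serum. The groups were read from the sample titles and descriptions, since the treatment text of the labels names shAC007128.1 for all 6 samples, controls included. Per the study's methods, stable lines were made with lentivirus and selected with puromycin. Each group rested on a single hairpin, and whether the lines were clones was not given in the sources used here. Nothing said that the 3 samples of a group came from separate cultures, so the p-values below measure only the spread between these samples, which may be technical.

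Notch signaling passes between neighboring cells. A Jagged or Delta-like ligand on one cell binds a Notch receptor on the next, the receptor is cut by an ADAM protease and then by gamma-secretase, and the freed intracellular domain joins the DNA-binding protein RBPJ and a Mastermind protein to switch on target genes, among them the HES and HEY repressors. In stratified squamous epithelium, NOTCH1 is known for driving cells out of the basal layer into differentiation, and loss-of-function mutations of NOTCH1 are frequent in ESCC.

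The samples held 55764405 to 78610457 counts, and 3 counts, taken as the smallest detectable level, corresponded to 0.0382 to 0.0538 CPM (counts scaled to the library total). Scaled CPM of the targeted AC007128.1 (ENSG00000229970) was 0.942, 0.41 and 0.781 in shCtrl and 0.32, 0.673 and 0.258 in shAC007128.1. The groups overlapped, since shAC007128.1 replicate 2 lay above shCtrl replicate 2, and a fall of AC007128.1 was not detectable at this depth (log2 fold change -0.77, 95% interval -1.96 to 0.42, edgeR adjusted p = 0.271). AC007128.1 shares 42.2% of its exonic bases with other annotated genes. The paper reports that its hairpin lowered AC007128.1 by qPCR, a measure separate from these counts. Markers of squamous epithelial cells were present (summed level of 8 markers, 2300 to 2316 CPM in shCtrl and 3186 to 3922 CPM in shAC007128.1). Of the 8, 6 were higher at an edgeR adjusted p of at most 0.05, against 21% of all genes tested. KRT17 (0.45, edgeR adjusted p = 0.102) and TP63 (-0.27, edgeR adjusted p = 0.406) did not pass. Of the markers of other cells, the 6 fibroblast markers summed to 15 to 16.2 CPM and 20.9 to 23.9 CPM, the 5 endothelial markers to 2.29 to 3.23 CPM and 0.302 to 2.02 CPM, and the 5 leukocyte markers to 59.3 to 68.3 CPM and 14.7 to 24 CPM. The leukocyte sum was almost wholly CD68 (63.8 ± 4.47 and 17.5 ± 5.27 CPM, SD, n = 3), which shares 85.6% of its exonic bases with other annotated genes, and the pan-leukocyte marker PTPRC had 0 to 9 counts per sample. The part of these markers in the results below was not tested. As in any bulk sample, fewer cells that express a gene and less RNA per cell could not be told apart.

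Sequences are shown for 2 of the target genes, HES1 and HES4, whose promoters both hold the motif GTGGGAA, the core letters bound by RBPJ. In the reported fit HES1 rose, with a call at the threshold, and HES4 fell. This contrast did not hold with an offset for the GC content of each gene. RefSeq promoters of 300 bases (250 before and 50 after the transcription start, GRCh38.p14) were found for 8 of the 10 genes and were searched on both strands for GTGGGAA and for TGGGAA, which lies inside it. GTGGGAA was present in 2 of the 8, HES1 and HES4, against 6.25% of 35116 promoters, and TGGGAA in the same 2, against 24% of promoters. Among the other 7 HES and HEY genes, GTGGGAA was present in 3 (HES5, HEY2 and HEYL) and absent from HES2, HES3, HES6 and HES7. In HES1 (chr3:194136042-194136097, plus strand, starting at -106 from the start site), GTGGGAA begins at -85 and a further TGGGAA at -70. In HES4 (chr1:1000154-1000195, minus strand, starting at -98), GTGGGAA begins at -77. The HES4 positions hold for the RefSeq start only, since GENCODE places the 5′ end of the gene at 1000172, inside this stretch. Both stretches are written 5′ to 3′ on the strand of the gene, with TGGGAA in capitals.
HES1: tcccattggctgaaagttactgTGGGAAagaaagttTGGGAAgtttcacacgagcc
HES4: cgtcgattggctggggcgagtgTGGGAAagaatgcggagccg
The hairpin's sense arm, from the study's oligo list, is given because every difference below was measured with it alone.
shAC007128.1: ccacaagtcctggcacatt

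In shAC007128.1, 2 of the 3 receptors and all 3 ligands rose, whereas 3 of the 4 target genes fell, but the counts depended on the setting. All 10 genes passed the filter on low counts. At an edgeR adjusted p of at most 0.05 over the 19254 genes tested, 6 of the 10 rose (NOTCH2, NOTCH3, JAG1, JAG2, DLL1 and HES1) and 3 fell (HES4, HEY1 and NRARP), and NOTCH1 did not pass. With an offset for the GC content of each gene, 7 were higher and 1 (HEY1) lower. With library size only or with the replicate number as a block 3 were higher, and leaving out 1 sample gave 3 to 6 higher and 1 to 3 lower. So many genes differed in this comparison that 40.8% of all genes tested passed, 21% as higher and 19.8% as lower. With a fold of at least 2 added, JAG2 was called higher (5.57% of all genes) and HEY1 lower (10.1%), that is 2 of 10 against 15.7% in either direction, which is close to the background. The sample ranges did not overlap for any of the 10 genes, which held for 55.2% of all genes. The exact permutation test over samples gave p = 0.1 for each of the 10, the smallest value that 3 against 3 samples can give. The median log2 fold change was 0.27 over the 10 genes and -0.02 over all genes tested.

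**Figure D1:**
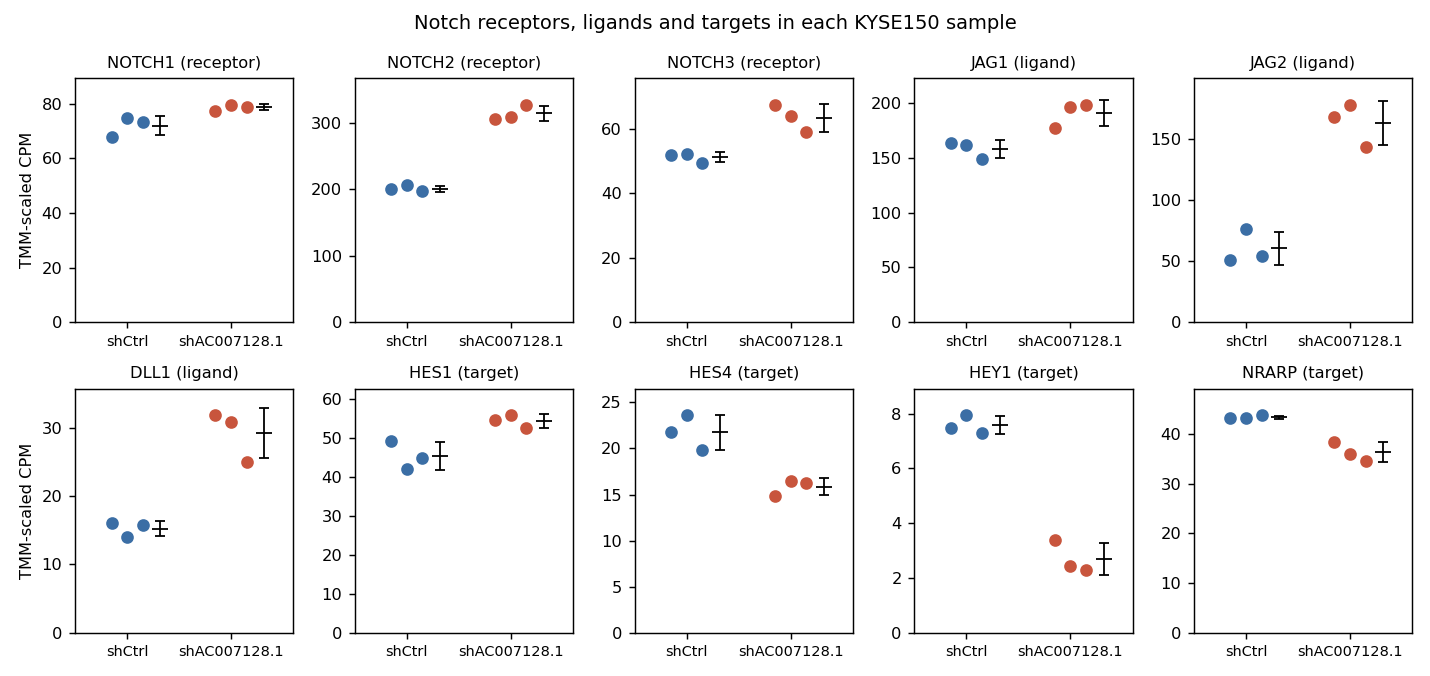
TMM-scaled CPM (y axis, linear, from 0, a scale for each gene) of the 10 Notch genes in the 3 shCtrl and 3 shAC007128.1 samples; points are samples and the bars beside them are mean ± SD. The samples of the groups do not overlap in any panel, and JAG2 (60.3 to 163 CPM) and HEY1 (7.57 to 2.71 CPM) show the widest relative gaps.

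NOTCH2 was the receptor that moved most. Its gene (ENSG00000134250) lies on the minus strand of chromosome 1, from 119911553 to 120100779 in hg38. NOTCH2 was measured at 201, 206 and 197 CPM in shCtrl and at 306, 309.7 and 328 CPM in shAC007128.1. Every shAC007128.1 sample lay far above every control, and the gap was many times the spread within either group. NOTCH2 rose from 201 ± 4.69 to 315 ± 11.8 CPM (SD, n = 3), a log2 fold change of 0.65 (SE 0.06, 95% interval 0.50 to 0.79, edgeR adjusted p = 0.000256). The call was lost in 1 of 19 alternative settings, a test against a fold of 1.5 (adjusted p = 0.251, range over the settings 1.13e-12 to 0.251).

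NOTCH2 shares near-identical sequence with the human NOTCH2NL genes, and how reads that match both were assigned was not given in the sources used here. None of the 4 NOTCH2NL genes tested passed, with log2 fold changes of 0.06 for NOTCH2NLA, -0.31 for NOTCH2NLB, -0.21 for NOTCH2NLC and 0.22 for NOTCH2NLR (edgeR adjusted p of 0.708, 0.264, 0.424 and 0.538). Their summed counts were 31%, 30.2% and 30.8% of the NOTCH2 count in shCtrl and 19.7%, 18.1% and 18.5% in shAC007128.1. This ratio was therefore lower in every shAC007128.1 sample. With the counts of NOTCH2 and the NOTCH2NL genes added together, a setting chosen after the data were seen, the sum rose by 0.51 on the log2 scale (edgeR adjusted p = 0.000607).

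NOTCH3 (ENSG00000074181, minus strand of chromosome 19, 15159038 to 15200995) was measured at 51.8, 52.3 and 49.5 CPM in shCtrl and at 67.5, 63.8 and 58.9 CPM in shAC007128.1. The lowest shAC007128.1 sample, replicate 3, still lay above all controls. NOTCH3 rose from 51.2 ± 1.52 to 63.4 ± 4.3 CPM (SD, n = 3), a log2 fold change of 0.31 (SE 0.08, edgeR adjusted p = 0.0217). The call was lost in 9 of 18 alternative settings (adjusted p 0.000927 to 1 over all), among them the fits without shCtrl replicate 1, 2 or 3 or without shAC007128.1 replicate 1 or 2, where adjusted p was 0.0557 to 0.0886. Over all fits that left out 1 sample, the log2 fold change of NOTCH3 was 0.26 to 0.35. With an offset for the GC content of each gene its log2 fold change was 0.56 (adjusted p = 0.000927).

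NOTCH1 (ENSG00000148400, minus strand of chromosome 9, 136494433 to 136546048), the receptor best known in squamous epithelium, was measured at 67.9, 74.7 and 73.2 CPM in shCtrl and at 77.5, 79.7 and 78.7 CPM in shAC007128.1. The samples did not overlap, although shAC007128.1 replicate 1 lay only slightly above shCtrl replicate 2. The means were 71.9 ± 3.58 and 78.6 ± 1.11 CPM (SD, n = 3), and the log2 fold change of 0.13 (95% interval -0.04 to 0.30) did not pass (edgeR adjusted p = 0.209). It passed in 2 of 18 alternative settings, both with the GC content offset (0.40, adjusted p = 0.0211, and 0.39, adjusted p = 0.0273, with the replicate number added as a block, over a range of 0.0211 to 1).

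Among the ligands, JAG2 showed the largest difference of the 10 genes in the upward direction. JAG2 encodes Jagged2 (ENSG00000184916, minus strand of chromosome 14, 105140982 to 105168824). It was measured at 50.8, 76.1 and 54 CPM in shCtrl and at 168, 178 and 143 CPM in shAC007128.1. The control samples were uneven, with replicate 2 above the other two, yet the lowest shAC007128.1 sample exceeded the highest control by a wide margin. JAG2 rose from 60.3 ± 13.8 to 163 ± 17.9 CPM (SD, n = 3), a log2 fold change of 1.43 (SE 0.17, 95% interval 1.04 to 1.83, edgeR adjusted p = 0.000603), and 3.29% of all genes tested had a higher one. It passed in all 18 alternative settings (log2 fold change 1.32 to 1.72). Exons of JAG2 share 469 bases with ENSG00000257622 on the same strand, a gene with 0 to 79 counts per sample.

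DLL1 encodes Delta-like 1 (ENSG00000198719, minus strand of chromosome 6, 170282206 to 170306565). It was measured at 16, 14 and 15.7 CPM in shCtrl and at 31.8, 30.8 and 25 CPM in shAC007128.1. The groups were well apart, with replicate 3 the lowest of the shAC007128.1 samples. DLL1 rose from 15.2 ± 1.07 to 29.2 ± 3.66 CPM (SD, n = 3), 1.92 times the control level, with a log2 fold change of 0.94 (SE 0.13, edgeR adjusted p = 0.00108). It passed in all 18 alternative settings (log2 fold change 0.87 to 1.13) and reached a fold of 2 with the GC content offset (1.13), with or without the replicate block, and without shAC007128.1 replicate 3 (1.03). Exons of DLL1 share 370 bases with FAM120B on the opposite strand, and whether counting used strand was not given in the sources used here. FAM120B had 3217 to 3874 counts in shCtrl and 2103 to 2602 counts in shAC007128.1, the opposite direction to DLL1.

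JAG1 encodes Jagged1 (ENSG00000101384, minus strand of chromosome 20, 10637684 to 10673999). It was measured at 164, 162 and 149 CPM in shCtrl and at 178, 197 and 199 CPM in shAC007128.1. The groups did not overlap, with shAC007128.1 replicate 1 nearest to the controls. JAG1 rose from 158 ± 8.29 to 191 ± 11.8 CPM (SD, n = 3), a log2 fold change of 0.27 (SE 0.08, edgeR adjusted p = 0.026). The call was lost in 8 of 18 alternative settings (adjusted p 0.00823 to 1 over all), among them the fits without shCtrl replicate 1, 2 or 3 or without shAC007128.1 replicate 2, where adjusted p was 0.0603 to 0.109. Over all fits that left out 1 sample, the log2 fold change of JAG1 was 0.23 to 0.32.

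**Figure D2:**
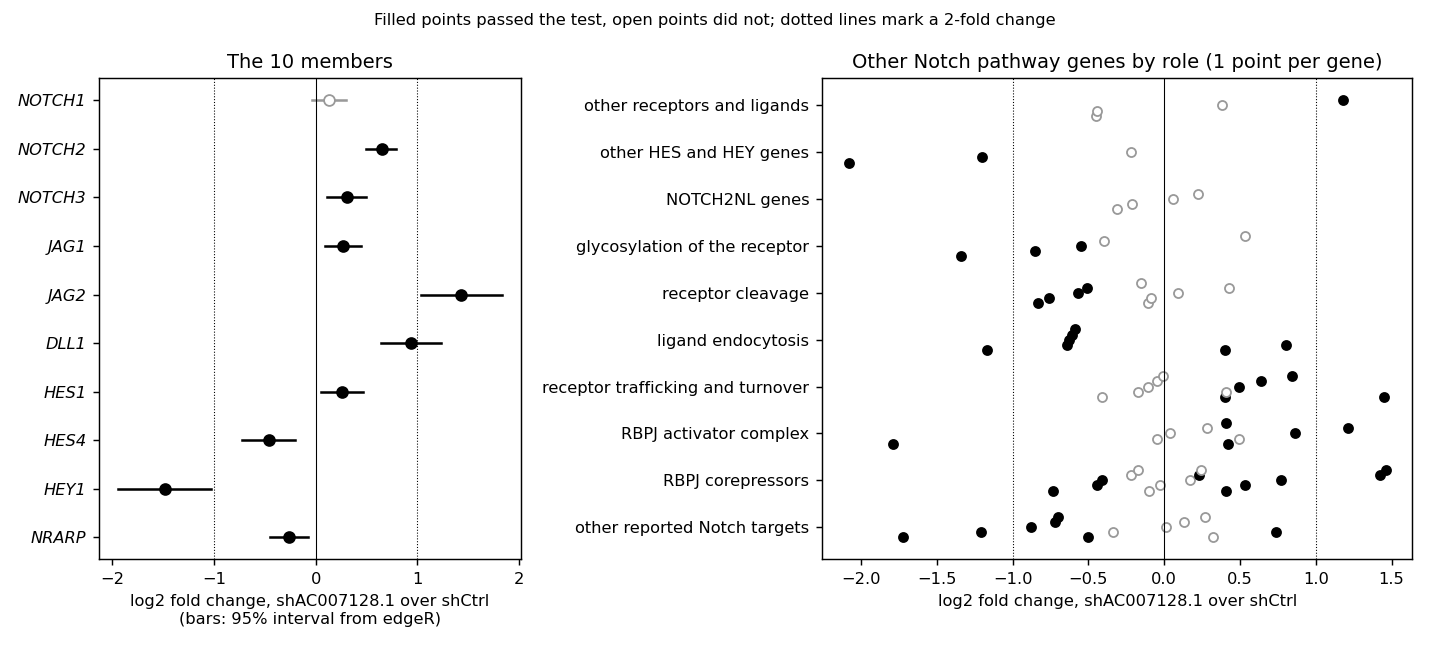
Log2 fold change of shAC007128.1 against shCtrl (x axis) for the 10 Notch genes (left, with 95% intervals) and for the other pathway and NOTCH2NL genes by role (right, 1 point per gene); filled points passed the test, open points did not, and dotted lines mark a 2-fold change. JAG2 (1.43), DLL1 (0.94) and NOTCH2 (0.65) lie farthest above 0 and HEY1 (-1.48) farthest below, and the interval of NOTCH1 crosses 0.

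The make-up of each family was compared within samples, by an exact permutation test that cannot go below p = 0.1 with 3 against 3 samples, so that no share can pass 0.05. Among counts of the 3 ligands, JAG1 made up 67.8 ± 3.45% in shCtrl and 50 ± 3.77% in shAC007128.1 (SD, n = 3), a difference of -17.9 percentage points. JAG2 took 25.6 ± 4.2% and 42.4 ± 3.02%, a difference of 16.8 points. The samples of the groups did not overlap for JAG1 or JAG2 (two-sided exact permutation p = 0.1 each, the smallest possible). The share of DLL1 was 6.55 ± 0.866% and 7.6 ± 0.807% with overlapping groups (exact permutation p = 0.3).

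Among counts of the 3 receptors, the share of NOTCH2 was 62 ± 0.581% in shCtrl and 68.9 ± 1.38% in shAC007128.1 (SD, n = 3), a difference of 6.85 points. NOTCH1 took 22.2 ± 0.91% and 17.2 ± 0.346%, a difference of -4.95 points, and NOTCH3 took 15.8 ± 0.331% and 13.9 ± 1.16%, a difference of -1.9 points. No share overlapped between the groups (two-sided exact permutation p = 0.1 for each, the smallest possible). The shares within a family sum to 100%, so they are not independent of each other. With NOTCH2 left out of the sum, NOTCH3 differed by 2.99 points and NOTCH1 by -2.99 points (exact permutation p = 0.2), so the direction of the NOTCH3 share turned.

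**Figure D3:**
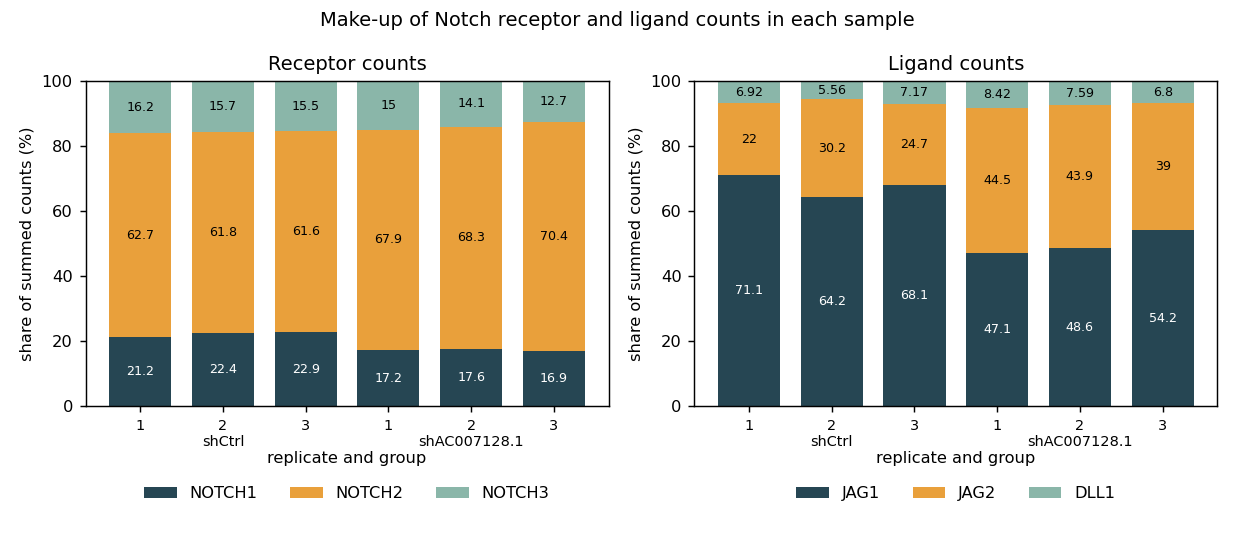
Share (y axis, %) of each gene among the summed counts of the 3 Notch receptors and of the 3 Notch ligands, as stacked bars for each of the 6 samples. JAG1 is at 64.2% to 71.1% of ligand counts in shCtrl and at 47.1% to 54.2% in shAC007128.1, and NOTCH2 at 61.6% to 62.7% and 67.9% to 70.4% of receptor counts.

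The target genes did not move together. HEY1, a repressor of the HEY family (ENSG00000164683, minus strand of chromosome 8), had the largest difference of the 4. It was measured at 7.47, 7.94 and 7.31 CPM in shCtrl and at 3.38, 2.44 and 2.3 CPM in shAC007128.1, from 496 to 639 and 134 to 190 counts. The controls were tightly grouped, and every shAC007128.1 sample lay under the lowest of them by a wide margin. HEY1 fell from 7.57 ± 0.328 to 2.71 ± 0.585 CPM (SD, n = 3), to 35.7% of the control level, with a log2 fold change of -1.48 (SE 0.19, 95% interval -1.94 to -1.03, edgeR adjusted p = 0.000938). It passed in all 18 alternative settings (log2 fold change -1.68 to -1.39).

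HES4, a HES family repressor (ENSG00000188290, minus strand of chromosome 1, 998962 to 1000172), was measured at 21.8, 23.6 and 19.8 CPM in shCtrl and at 14.8, 16.5 and 16.2 CPM in shAC007128.1. The groups did not overlap. HES4 fell from 21.8 ± 1.89 to 15.8 ± 0.912 CPM (SD, n = 3), a log2 fold change of -0.46 (SE 0.11, edgeR adjusted p = 0.0144). The GC content of its longest transcript is 73.9%, against a median of 48.3% over the genes tested, and with the GC content offset its log2 fold change was 0.00 (adjusted p = 0.999, range over 18 settings 0.00106 to 1). The call was also lost without shCtrl replicate 1 (-0.46, adjusted p = 0.0517) and without shCtrl replicate 2 (-0.40, adjusted p = 0.0606).

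NRARP encodes an ankyrin repeat protein that binds the Notch intracellular domain and limits its activity (ENSG00000198435, minus strand of chromosome 9, 137299631 to 137302271). It was measured at 43.2, 43.2 and 43.8 CPM in shCtrl and at 38.5, 35.9 and 34.6 CPM in shAC007128.1. The controls were nearly identical and lay above all 3 shAC007128.1 samples. NRARP fell from 43.4 ± 0.344 to 36.3 ± 1.97 CPM (SD, n = 3), a log2 fold change of -0.26 (SE 0.08, edgeR adjusted p = 0.0391). With the GC content offset it was -0.06 (adjusted p = 0.544), at a transcript GC content of 59.2%. The call was lost in 8 of 18 settings (adjusted p 0.0142 to 1 over all), among them the fits without shCtrl replicate 1, 2 or 3 or without shAC007128.1 replicate 2, where adjusted p was 0.101 to 0.115. Over all fits that left out 1 sample, the log2 fold change of NRARP was -0.30 to -0.23.

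HES1, the HES repressor most often used as a readout of Notch activity (ENSG00000114315, plus strand of chromosome 3, 194136148 to 194138732), was the target gene that rose. It was measured at 49.2, 42 and 44.8 CPM in shCtrl and at 54.6, 55.8 and 52.4 CPM in shAC007128.1. The groups were close but did not overlap. The mean was 45.3 ± 3.6 CPM in shCtrl and 54.3 ± 1.75 CPM in shAC007128.1 (SD, n = 3), with a log2 fold change of 0.26 (SE 0.09, 95% interval 0.05 to 0.47, edgeR adjusted p = 0.0495). The call lay at the threshold and was lost in 12 of 18 alternative settings (adjusted p 0.0106 to 1 over all), including the fits without shCtrl replicate 1, 2 or 3 or without shAC007128.1 replicate 1 or 2 (adjusted p 0.0523 to 0.19). Over all fits that left out 1 sample, the log2 fold change of HES1 was 0.20 to 0.32. The promoter stretches of HES1 and HES4 printed above thus belong to genes that moved in opposite directions in this fit, a contrast that did not hold under the GC content offset.

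**Figure D4:**
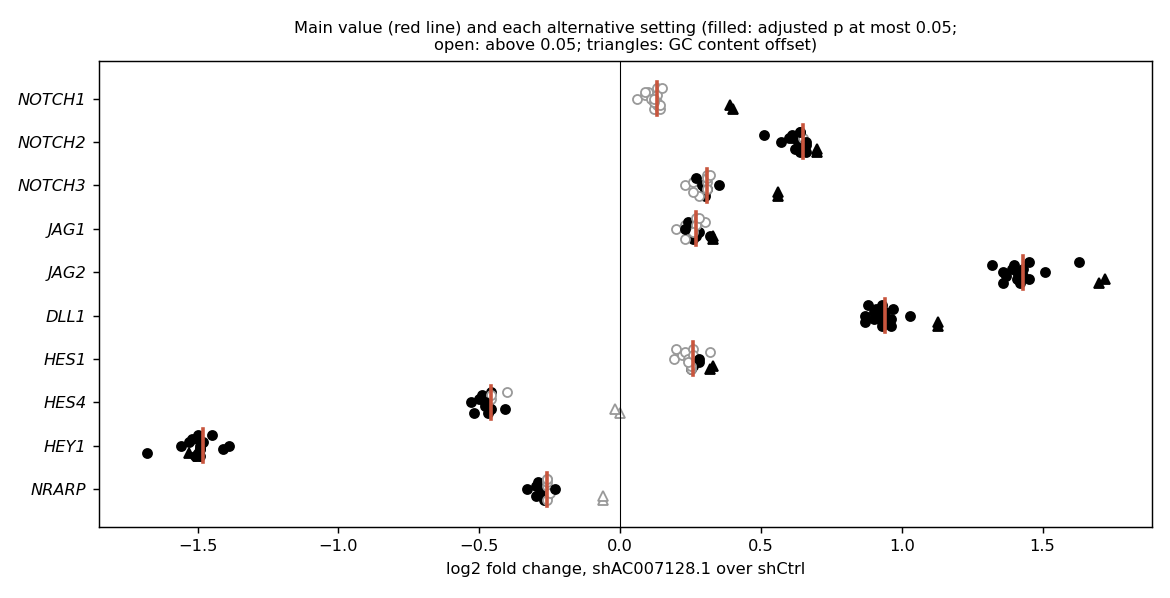
Log2 fold change (x axis) of each of the 10 Notch genes in the reported fit and in the alternative settings (red line, the reported value; symbols, the alternatives, filled where the adjusted p was at most 0.05 and triangles for the GC content offset). JAG2 (1.32 to 1.72), DLL1 (0.87 to 1.13) and HEY1 (-1.68 to -1.39) stayed past the threshold throughout, and HES4 reached 0.00 with the GC content offset.

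Summed over each role, receptor levels were 319 to 333 CPM in shCtrl and 451 to 466 CPM in shAC007128.1. Ligand levels were 219 to 252 CPM and 368 to 406 CPM. Target levels were 116 to 122 CPM and 106 to 111 CPM. No sum overlapped between the groups, with receptors and ligands higher and targets lower in shAC007128.1. The receptor sum was mostly NOTCH2 (mean 201 CPM in shCtrl and 315 CPM in shAC007128.1). NOTCH3 also passed as higher, but NOTCH1 did not pass. In the ligand sum JAG2 went from a mean of 60.3 to 163 CPM, and JAG1 and DLL1 also passed as higher. The target sum holds HES1, which rose, and HES4 and NRARP, whose log2 fold changes were 0.00 and -0.06 with the GC content offset.

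Levels of different genes were compared per kilobase of the canonical transcript. In shCtrl the order was HES1 (28.8 ± 2.29 CPM per kilobase, SD, n = 3), JAG1 (26.7 ± 1.39), HES4 (24.6 ± 2.13), NOTCH2 (17.6 ± 0.411), NRARP (16.4 ± 0.13), JAG2 (10.4 ± 2.39), NOTCH1 (7.51 ± 0.374), NOTCH3 (5.9 ± 0.175), DLL1 (4.03 ± 0.283) and HEY1 (3.45 ± 0.149). HES1, JAG1 and HES4 overlapped as neighbors, and the other neighbors were separate in every sample. In shAC007128.1, JAG2 (28.2 ± 3.1) stood beside HES1 (34.5 ± 1.11), JAG1 (32.2 ± 1.99) and NOTCH2 (27.5 ± 1.03), neighbors that overlapped. HES4 (17.9 ± 1.03) and NRARP (13.8 ± 0.748) followed, then NOTCH1 (8.22 ± 0.116), DLL1 (7.72 ± 0.968) and NOTCH3 (7.3 ± 0.495), and HEY1 stayed last (1.23 ± 0.266). DLL1 overlapped both NOTCH1 and NOTCH3, whereas NOTCH1 lay above NOTCH3 in every sample. Thus JAG2 was among the highest per length in shAC007128.1 and mid-ranked in shCtrl. When lengths were taken over all annotated exons, HES4 traded places with JAG1 and NRARP with NOTCH2 in shCtrl. In shAC007128.1, with those lengths, the mean of JAG2 (25.5 CPM per kilobase) lay above that of JAG1 (20.6). NOTCH1 (6.28) then lay below DLL1 (7.64) and NOTCH3 (6.74), so the order of NOTCH1 and NOTCH3 depended on the length used.

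The rest of the pathway was read from lists of 84 further genes, 75 of which passed the filter. Of the 75, 19 rose, 24 fell and 32 did not pass, so that 57.3% passed against 40.8% of all genes, with a median log2 fold change of -0.09. With a fold of at least 2 added, 5 of the 75 rose and 7 fell. Of all genes tested, 5.57% rose and 10.1% fell by that rule, so these counts are close to the background.

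Of the other 7 HES and HEY genes, 3 passed the filter, 2 of which fell, against 19.8% of all genes tested that fell. Both fell by at least 2-fold, against 10.1% of all genes tested. HES3, HES5 and HEY2 had 0 counts in every sample, which at 3 counts per sample allows a level of up to 0.0538 CPM, and HEYL did not pass the filter. HES7, best known from the segmentation clock, was measured at 52.2, 71.3 and 47.8 CPM in shCtrl and at 14.8, 12.2 and 13.4 CPM in shAC007128.1. The groups were far apart, and HES7 fell by 2.08 on the log2 scale (SE 0.17, edgeR adjusted p = 0.000137), a larger difference than that of HEY1. HES6, a HES protein that can oppose HES1, fell from 17.5 ± 3.92 to 7.63 ± 1.51 CPM (SD, n = 3, log2 fold change -1.20, SE 0.21, edgeR adjusted p = 0.00376). With the GC content offset HES6 fell by less than 2-fold (-0.84, edgeR adjusted p = 0.0212). Its call was lost with the replicate block and GC content offset together (-0.84, adjusted p = 0.0653). HES2, named after its values were seen, differed between samples of the same group (31.4, 33 and 11.5 CPM in shCtrl and 16.7, 17.5 and 31.1 CPM in shAC007128.1) and did not pass (edgeR adjusted p = 0.711).

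Among the other receptors and ligands, 1 of the 4 genes tested rose (25%) and the median log2 fold change was -0.03. This is close to the 21% of all genes tested that rose. The gene was DNER, a Delta/Notch-like transmembrane protein, at 2.85 ± 0.0711 CPM in shCtrl and 6.45 ± 0.482 CPM in shAC007128.1 (SD, n = 3, log2 fold change 1.18, SE 0.15, edgeR adjusted p = 0.000866). NOTCH4, chosen for naming after its values were seen, was at 0 to 0.292 CPM in the 6 samples (edgeR adjusted p = 0.804), near the smallest detectable level.

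Genes that act on the receptor or ligand protein were counted by step, against 21% of all genes tested that rose, 19.8% that fell and 40.8% that passed either way. Of 5 glycosylation genes, 3 fell and 0 rose (median log2 fold change -0.55), led by POGLUT1, which adds O-glucose to the EGF repeats of Notch, from 26.2 ± 1.91 to 10.4 ± 0.825 CPM (log2 fold change -1.34, SE 0.11, edgeR adjusted p = 0.000163). Of 9 receptor cleavage genes, 4 fell and 0 rose (median -0.15). The 44.4% that passed is close to the 40.8% either way, but all of them fell, against 19.8% of all genes tested. Those that fell included the sheddase ADAM17, from 233 ± 7.23 to 131 ± 7.15 CPM (-0.83, SE 0.07, edgeR adjusted p = 0.000154). The gamma-secretase subunit NCSTN fell from 76 ± 2.16 to 53.5 ± 2.4 CPM (-0.51, SE 0.08, edgeR adjusted p = 0.00177). ADAM10, in the same list and named after its values were seen, did not pass (-0.09, edgeR adjusted p = 0.326). All 7 genes of ligand endocytosis passed, 2 higher and 5 lower (median -0.61). NEURL1, an E3 ligase that ubiquitinates ligands, fell from 422 ± 12.6 to 187 ± 8.04 CPM (-1.17, SE 0.06, edgeR adjusted p = 3.62e-05). With the GC content offset NEURL1 fell by less than 2-fold (-0.88, edgeR adjusted p = 0.000151). MIB1, in the same list and named after its values were seen, rose from 79.3 ± 4.76 to 138 ± 15.7 CPM (0.80, SE 0.10, edgeR adjusted p = 0.000853). Of 11 genes of receptor trafficking and turnover, 5 rose and 0 fell (median 0.40). The 45.5% that passed is also close to 40.8%, but all of them rose, against 21% of all genes tested. NEDD4, an E3 ligase of the endocytic route, rose from 31.9 ± 3.86 to 87.3 ± 7.25 CPM (1.45, SE 0.12, edgeR adjusted p = 0.000126).

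In the nucleus, 4 of 9 genes of the RBPJ activator complex rose and 1 fell (median log2 fold change 0.41), so that 55.6% passed against 40.8% of all genes tested. The gene that fell was MAML3, a Mastermind coactivator, from 4.85 ± 0.0453 to 1.4 ± 0.369 CPM (SD, n = 3, -1.79, SE 0.24, edgeR adjusted p = 0.000993). The Mastermind genes MAML1 and MAML2, named after their values were seen, went the other way. MAML1 rose from 91.8 ± 4.43 to 122 ± 4.99 CPM (0.41, edgeR adjusted p = 0.00404). MAML2 rose from 8.23 ± 0.334 to 14.9 ± 1.16 CPM (0.86, edgeR adjusted p = 0.00127). KAT2B, a histone acetyltransferase, rose from 9.13 ± 1.35 to 21.1 ± 1.95 CPM (1.21, SE 0.15, edgeR adjusted p = 0.000688). RBPJ itself, named after its values were seen, was at 39.9, 38.5 and 39 CPM in shCtrl and at 21.7, 65.2 and 78 CPM in shAC007128.1. The shAC007128.1 samples lay on both sides of the controls, replicate 1 below and replicates 2 and 3 above, and RBPJ did not pass (0.49, SE 0.40, edgeR adjusted p = 0.374).

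Of 15 RBPJ corepressor genes, 6 rose and 3 fell (median 0.17), so that 60% passed against 40.8% of all genes tested (21% higher and 19.8% lower). The Groucho-family corepressors TLE3 and TLE4, partners of HES proteins, rose from 16.3 ± 1.71 to 43.8 ± 5.21 CPM (1.42, SE 0.13, edgeR adjusted p = 0.000199) and from 4.45 ± 0.0528 to 12.3 ± 0.674 CPM (1.46, SE 0.13, edgeR adjusted p = 0.00016). Of 12 other reported Notch targets tested, 1 rose and 6 fell (median -0.42), so that 58.3% passed. CDKN1A, the cell cycle inhibitor p21, fell from 141 ± 3.69 to 42.9 ± 4.64 CPM (-1.72, SE 0.10, edgeR adjusted p = 3.83e-05). SNAI2, the transcription factor Slug, fell from 70.3 ± 1.9 to 30.5 ± 3.33 CPM (-1.21, SE 0.10, edgeR adjusted p = 0.00014).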

How the data were processed

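Poly-A RNA from KYSE150 cells with shCtrl or shAC007128.1 (3 samples each) had been sequenced as paired ends. The authors filtered the reads and mapped them to hg38 with TopHat, and the deposited table holds their estimated counts per Ensembl gene, whole numbers that were not normalized. The counting program, annotation and use of strand are not given in the sources used here. In every sample more genes had exactly 4 counts than the next lower or next higher number (1355, 761 and 993 genes in shCtrl replicate 1). Groups were taken from the sample titles and descriptions. Gene names and lengths came from GENCODE v44 on hg38 (60357 of 67140 identifiers, 89.9%). Genes were filtered with filterByExpr, then scaled by TMM, and the quasi-likelihood test of edgeR 4.0.16 in R 4.3.3 was run, with Benjamini-Hochberg adjustment over 19254 genes, in place of the study's Cuffdiff. A gene passed at an adjusted p of at most 0.05. CPM are TMM-scaled. The steps were tested on simulated data. The Notch genes and the lists were chosen with earlier results of these data known. Named were AC007128.1, the 10 Notch genes, the NOTCH2NL genes and, in each list, genes that passed with a fold of at least 2, or else the 2 with the smallest p. Standard errors are the log2 fold change over the root of F. Alternatives were DESeq2 1.42.0, limma-voom (limma 3.58.1), other size factors, other filters, a replicate block, an offset smoothed on exonic GC content, libraries thinned to the smallest total, counts divided by 4, a test against a fold of 1.5 (glmTreat) and leaving out each sample.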

Additional observations from a re-analysis of the deposited data

How the results depend on the processing

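Under 18 alternatives or more per gene, JAG2, DLL1 and HEY1 stayed past the threshold, and NOTCH2 in all but the test against a fold of 1.5. NOTCH3, JAG1, HES1, HES4 and NRARP differed by a fold below 1.5 as reported, so that test could not call them. Members called higher, 6 as reported, were 3 with library size only, 3 without a filter, 7 with the GC content offset, with or without the replicate block, 2 against a fold of 1.5, 1 with a fold of at least 2, and 3 to 6 when 1 sample was left out. Members called lower, 3 as reported, were 1 with the GC content offset, 1 with that offset and the replicate block, 1 against a fold of 1.5, 1 with a fold of at least 2, and 1 to 3 when 1 sample was left out. Members higher by a fold of at least 2, 1 as reported, were 2 with the GC content offset, 2 with that offset and the block, and 1 to 2 when 1 sample was left out. HES4 turned to 0.00 with the GC content offset. NOTCH2NLA turned to -0.02 with library size only, -0.08 with the GC content offset and -0.10 with the block added, and ranged from -0.02 to 0.14 when 1 sample was left out, where NOTCH2NLR ranged from -0.01 to 0.37. Other pathway genes, 19 higher and 24 lower as reported, were 6 and 9 against a fold of 1.5 and 5 and 7 with a fold of at least 2. The share differences without NOTCH2 were -2.99 points for NOTCH1 and 2.99 points for NOTCH3. The cause of these shifts was not tested beyond what each setting changes.

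With the replicate number as a block, 3 members were called higher and 2 lower, with NOTCH3 (adjusted p = 0.0501), JAG1 (0.068), HES1 (0.0978) and NRARP (0.092) losing their calls. Same-numbered samples did not deviate together (correlations 0.0306, -0.0254 and -0.0299), so the numbers were not taken as pairs.

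Counts of 1 hairpin in 1 cell line, 3 samples a group and a target near the detection level limit these results, and an exact test over samples cannot pass the threshold.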
